A study of Rattus norvegicus with 4 samples.

Results

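Lysosomal genes are described here in NR8383, a continuous line of rat alveolar macrophages that was started from the lung lavage of a healthy animal and grows partly attached and partly afloat. The 44 genes encode the cathepsins (9 genes), other hydrolases with their cofactors (13), membrane proteins of the lysosome (7) and the proton pump with its accessory subunits (15). They were found by matching the RefSeq transcript of each gene spot to its rat gene symbol. The arrays carried a probe for 43 of them, among 16581 named genes in all, and Gla, the alpha-galactosidase gene, had no matching probe.

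All 4 samples belong to 1 group of biological replicates, which the labels number 1 to 4. These were cultures at 20 passages, seeded 48 h ahead in 25 cm2 flasks and then kept for 4 h with NRCWE006 nanotubes, which are multi-walled and made of carbon sheets rolled into fibres, at 1 cm2 of nanotube surface per cm2 of culture. Unexposed cultures, which the design also names, were not analysed here. No value below therefore measures an effect of the nanotubes. Each culture was measured on 1 Agilent 1-colour array from 100 ng of total RNA, and the values are therefore levels and the spread between cultures, labelling and hybridisation combined. Whether fewer cells carry an RNA or each cell carries less of it cannot be told apart in such bulk samples.

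The lysosome is the acidic compartment in which a macrophage breaks down what it has taken up. The vacuolar ATPase, a rotary pump with a membrane sector called V0 and a cytosolic sector called V1, drives protons into its lumen, and most lysosomal hydrolases are active at the low pH that results. Heavily glycosylated membrane proteins line the inner face, and alveolar macrophages are known for a high content of lysosomes and cathepsins.

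Most of these genes were measurable in the exposed cells. Of the 43 genes with a probe, 25 (58.1%) were well above background on all 4 arrays, against 11.9% of the 16419 named genes measured on every array. A further 10 were well above background on 1 to 3 arrays (17.2% of named genes) and 8 on none (70.9%). A gene counted as well above background on an array when the scanner software flagged over 50% of the spots of 1 of its probes so. Genes with a probe printed 10 times per array were above background more often in general, in 51.8% of cases, and 6 of the 7 such lysosomal genes were. Among genes without such a probe, 19 of 36 lysosomal genes (52.8%) were above background on all arrays, against 9.92% of named genes.

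By role, 6 of 9 cathepsins, 5 of 12 other hydrolases and cofactors, 5 of 7 membrane proteins and 9 of 15 proton pump genes were above background on all arrays. The lowest signal of a lysosomal probe that was called well above background was 17.2, and the highest signal of one that was not called was 19.1. A gene below that zone has only an upper bound here, not a level of 0. With detection set by negative control spots in place of the scanner flag, 33 of the 43 genes were detected, including the 25, against 21.5% of named genes.

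**Figure D1:**
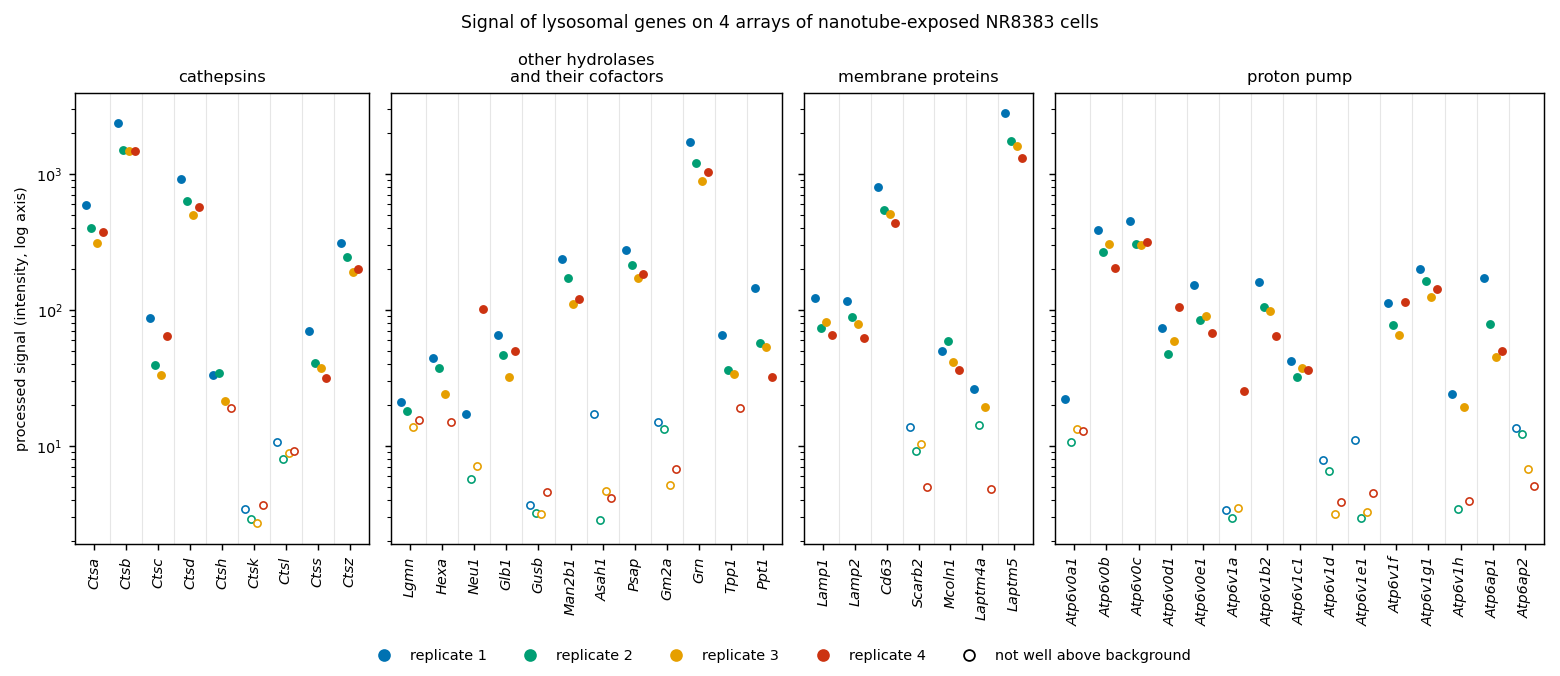
Background-subtracted signal (intensity, log axis) of the 43 lysosomal genes in replicates 1 to 4, by role. Filled points were well above background and open points were not. Signals are not scaled between arrays, so replicate 1 lies high for most genes, and heights of different genes are not comparable. The 25 genes with 4 filled points lie at 31.6 (Ctss in replicate 4) or above, and Neu1 and Atp6v1a have a replicate 4 point far above the other replicates.

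The promoters were searched for a sequence feature known from lysosomal genes, so its presence is not independent of how the genes were chosen. In human and mouse cells, many lysosomal genes carry the CLEAR element, a palindrome built round the E-box letters CACGTG, to which the transcription factor TFEB and its relatives bind. RefSeq promoter windows of the GRCr8 assembly, from 250 bases before to 50 bases after the gene start, were matched for 36 of the 44 genes. Only the first window listed for each gene was searched, so any other start of a gene was not covered. The 8 without an entry were Ctsb, Hexa, Asah1, Psap, Ppt1, Atp6v1b2, Atp6v1c1 and Atp6v1h. Nested strings were searched on both strands. CACGTG is the core, TCACGTG adds a base before it, TCACGTGA adds a base after that, and the full palindrome adds a further G before and C after, 10 bases in all. CACGTG was present in 7 of the 36 windows (19.4%), against 6.65% of all 27457 promoter windows and 10.9% of the 1647 windows of genes detected in these cells. TCACGTG was present in 6 (16.7%), against 3.43% of all windows and 6.86% of those of detected genes. TCACGTGA was present in 5 (13.9%), against 0.867% and 2.55%. None of the 36 held the full palindrome, which 0.277% of all windows held.

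The 7 genes with CACGTG were Ctsd, Glb1, Lamp1, Cd63, Mcoln1, Atp6v0d1 and Atp6v0e1, which include members of every role. All 7 were among the 20 detected genes that have a window, and none was among the 16 others, of which Gla had no probe. In general, CACGTG was in 10.9% of windows of detected genes and 6.65% of all windows. At such a share few of 16 windows would hold it in any case. The split was not tested, so it does not link the string to detection. Of the 13 matches in the 7 windows with CACGTG, 11 began before the gene start. As a window holds 250 bases before the start and 50 after it, most matches would begin there in any case. The stretches that hold TCACGTGA are shown, since this string stood furthest above its share of all promoters. Each is 30 bases on the strand of the gene, 5′ to 3′, with TCACGTGA in capitals.
Ctsd: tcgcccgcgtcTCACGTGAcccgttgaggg
Lamp1, upstream match: agaccctcggcTCACGTGAccggcgggcgc
Lamp1, match nearer the start: cgcggcactgtTCACGTGAcaggcgctgcc
Mcoln1: aggcgccccgcTCACGTGAccgcggcgcat
Atp6v0d1: ccccattgtggTCACGTGAgatgcagtgcg
Atp6v0e1: tcgcgcgccggTCACGTGAgcctctgttga
These lie in GRCr8 at chr1:206968814-206968843 (minus strand) for Ctsd, chr16:83075111-83075140 and chr16:83075084-83075113 (minus) for Lamp1, chr12:6358250-6358279 (plus) for Mcoln1, chr19:50357283-50357312 (minus) for Atp6v0d1 and chr10:17007115-17007144 (minus) for Atp6v0e1. Counted from the gene start, the capitals begin at -11 in Ctsd, at -66 and -39 in Lamp1, at 4 in Mcoln1, at -53 in Atp6v0d1 and at 24 in Atp6v0e1. Whether any of these matches is bound was not measured.

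Lamp1 held 5 copies of CACGTG, and its window is given in full for their spacing, with each copy in capitals. It is 300 bases at chr16:83075014-83075313 of GRCr8, on the minus strand.
Lamp1 promoter: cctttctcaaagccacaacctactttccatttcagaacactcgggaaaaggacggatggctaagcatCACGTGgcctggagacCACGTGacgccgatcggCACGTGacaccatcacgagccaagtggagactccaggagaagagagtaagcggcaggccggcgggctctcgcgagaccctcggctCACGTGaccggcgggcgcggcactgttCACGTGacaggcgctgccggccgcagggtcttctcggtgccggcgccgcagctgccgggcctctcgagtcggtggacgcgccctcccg
The first 3 copies lie close together, and the other 2 are those within TCACGTGA shown above.

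Of the 9 cathepsins, the proteases of the lysosome, Ctsa, Ctsb, Ctsc, Ctsd, Ctss and Ctsz were well above background in all cultures. Signals are background-subtracted intensities of the array, and levels are log2 signals relative to the 75th percentile of the probes detected on all arrays, which was 384, 281, 236 and 223 in replicates 1 to 4. Signals thus carry the brightness of their array, and levels of different genes are not comparable. Ctsb, a cysteine protease that trims as well as cuts proteins, had signals of 2355, 1506, 1475 and 1474 in replicates 1 to 4 and a level of 2.60 ± 0.13 (SD, n = 4). Ctsd, the main aspartic protease of the lysosome, had signals of 924, 638, 502 and 572 and a level of 1.22 ± 0.12. Ctsz, a cysteine protease that removes carboxy-terminal residues, had signals of 314, 244, 190 and 200 and a level of -0.24 ± 0.07. In these 3 genes the cultures lay close together once scaled, the highest over the lowest by 1.23-fold in Ctsb and 1.11-fold in Ctsz.

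Ctsa, the serine carboxypeptidase that also protects beta-galactosidase and neuraminidase, had signals of 597, 401, 312 and 376 (level 0.58 ± 0.15). Ctss, a cysteine protease of antigen-presenting cells that cuts the invariant chain of MHC class II, had signals of 70.1, 40.7, 37.8 and 31.6 (level -2.68 ± 0.17). Ctsc, the dipeptidyl peptidase that activates granule serine proteases, was the cathepsin whose cultures differed most among those detected, with signals of 88.0, 39.4, 33.5 and 64.7. Software errors of Ctsc were 9.64, 5.12, 4.78 and 15.3. Its levels were -2.12, -2.83, -2.82 and -1.78, so replicates 1 and 4 lay above replicates 2 and 3, by up to 2.07-fold.

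The other cathepsins were at the edge of measurement or below it. Ctsh, an aminopeptidase, had signals of 33.1, 34.7, 21.3 and 19.0 and was well above background in replicates 1 to 3 and not in replicate 4. Ctsl, an endopeptidase, had signals of 10.7, 8.09, 8.93 and 9.22, and Ctsk, the collagen-degrading cathepsin of osteoclasts, had 3.44, 2.90, 2.72 and 3.69. Neither was well above background on any array. The Ctsk signals lay near the median of the negative control spots, which was 3.36, 2.98, 3.30 and 4.61. Those of Ctsl, a mean over 9 or 10 spots per array, lay above the 95th percentile of those spots, which was 4.00, 3.48, 3.99 and 5.10.

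Among the other hydrolases and cofactors, Glb1, Man2b1, Psap, Grn and Ppt1 were well above background in all cultures. Grn encodes progranulin, which reaches the lysosome and is cut there into granulins, and had signals of 1717, 1211, 891 and 1027 (level 2.10 ± 0.13, SD, n = 4). Psap encodes prosaposin, the precursor of the saposins that hydrolases need to degrade sphingolipids, and had signals of 278, 213, 171 and 184 (level -0.40 ± 0.09). Both varied little, with the highest culture over the lowest by 1.22-fold in Grn and 1.14-fold in Psap. Man2b1, an alpha-mannosidase that trims glycoprotein sugars, had signals of 236, 173, 111 and 120 (level -0.85 ± 0.18). Glb1, the beta-galactosidase that removes galactose from gangliosides, had signals of 65.3, 46.7, 32.1 and 50.3 (level -2.54 ± 0.30). Ppt1, which removes palmitate from proteins, had signals of 145, 57.7, 53.3 and 32.4. Its levels were -1.41, -2.28, -2.15 and -2.78, highest in replicate 1 and lowest in replicate 4, a ratio of 2.59.

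Hexa, the alpha subunit of beta-hexosaminidase, and Tpp1, a tripeptidyl peptidase, were called in replicates 1 to 3 and missed in replicate 4. Hexa signals were 44.2, 37.6, 24.2 and 15.1, and Tpp1 signals were 66.2, 36.4, 34.2 and 19.1. With Ctsh, these 3 genes were missed by replicate 4 alone, as were 2.91% of named genes. That share includes the 70.9% of named genes called on no array, which could not be missed in this way. Beside 25 lysosomal genes called on all arrays 3 were missed so, and beside 1946 named genes 477 were. No lysosomal gene was missed by replicate 1, 2 or 3 alone (0.0244%, 0.128% and 0.53% of named genes). Lgmn, the asparaginyl endopeptidase that matures cathepsins, was called in replicates 1 and 2, with signals of 21.3, 18.0, 13.9 and 15.7.

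Neu1, the lysosomal neuraminidase, was far brighter in replicate 4 than in the other cultures. Its signals were 17.2, 5.78, 7.19 and 101 in replicates 1 to 4, with software errors of 3.71, 3.05, 3.84 and 17.5, and it was called in replicates 1 and 4. The probe was printed once, so no spot repeats this value, and as replicates 2 and 3 were not above background, no exact difference can be given. Ctsa, whose protein forms a complex with that of Neu1, had a level in replicate 4 that was 0.24 above the mean of the other arrays on the log2 scale. Gusb (beta-glucuronidase), Asah1 (acid ceramidase) and Gm2a (the GM2 ganglioside activator) were called on no array, with signals of at most 4.65, 17.2 and 15.1.

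Of the 7 membrane proteins, Lamp1, Lamp2, Cd63, Mcoln1 and Laptm5 were well above background in all cultures. Laptm5, a transmembrane protein of blood cells that takes receptors to the lysosome, had signals of 2795, 1756, 1593 and 1304 (level 2.70 ± 0.14, SD, n = 4). Cd63, a tetraspanin of late endosomes and exosomes, had signals of 798, 544, 509 and 440 (level 1.02 ± 0.07). Lamp1 and Lamp2 are the abundant glycoproteins that coat the inner face of the membrane. Lamp1, whose promoter window is shown above, had signals of 123, 73.7, 82.0 and 65.1, and Lamp2 had 118, 88.4, 79.1 and 62.0. Once scaled, the highest culture was above the lowest by 1.32-fold in Lamp1 and 1.21-fold in Lamp2. A further Lamp2 probe gave signals of 3.70, 3.20, 3.22 and 7.28 and was called on no array, so the probes of that gene disagreed.

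Mcoln1, the calcium channel TRPML1 of the lysosome, had signals of 50.0, 59.4, 41.7 and 36.2 (level -2.58 ± 0.29). Laptm4a, a small transmembrane protein, had signals of 26.4, 14.2, 19.4 and 4.83 and was called in replicates 1 and 3. Scarb2, the membrane protein LIMP-2, had 13.8, 9.26, 10.4 and 5.05 and was called on none. None of the 5 detected membrane protein genes had a ratio over 2 between cultures.

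Of the proton pump genes, 4 of 5 in the V0 sector, 4 of 8 in the V1 sector and 1 of 2 accessory subunits were well above background on all arrays. In the V0 sector these were Atp6v0b, Atp6v0c, Atp6v0d1 and Atp6v0e1. Atp6v0c and Atp6v0b encode the proteolipid subunits of the ring that carries protons. The brighter Atp6v0c probe had signals of 452, 308, 301 and 319 (level 0.31 ± 0.16), and its other probe was also called on every array, with 100, 52.2, 62.4 and 56.9. Atp6v0b had signals of 391, 268, 308 and 204 (level 0.05 ± 0.23), and Atp6v0e1, a small membrane subunit, had 154, 84.6, 90.2 and 68.5 (level -1.54 ± 0.21). Atp6v0d1, which links the ring to the central stalk, had signals of 73.6, 47.3, 59.2 and 105, with software errors of 8.05, 5.45, 6.65 and 17.3. Its levels were -2.38, -2.57, -1.99 and -1.09, a ratio of 2.79 between replicate 4 and replicate 2, the largest among the 25 detected genes. Atp6v0a1, the large subunit through which protons pass, was called in replicate 1 alone, with signals of 22.3, 10.7, 13.3 and 13.0.

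In the V1 sector, Atp6v1b2, Atp6v1c1, Atp6v1f and Atp6v1g1 were well above background on all arrays. Atp6v1b2, the B subunit of the ATP-splitting head, had signals of 161, 106, 99.0 and 64.8 (level -1.43 ± 0.25). Atp6v1g1, of the peripheral stalks, had 200.4, 164, 126 and 144 (level -0.81 ± 0.14), and Atp6v1c1, which joins these stalks to the membrane sector, had 42.3, 32.4, 37.4 and 36.3 (level -2.89 ± 0.30). Atp6v1f, of the central stalk, had 112, 78.2, 65.6 and 115. Its levels of -1.77, -1.84 and -1.85 in replicates 1 to 3 were close together, and -0.95 in replicate 4 stood apart by the ratio of its gap to the range, as 1 array did in 7.66% of detected named genes.

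The remaining V1 genes were at or near background. Atp6v1a, the subunit that splits ATP, had 2 probes, of which 1 was at 3.39, 2.94, 3.52 and 25.7 and was called in replicate 4 alone, while the other was at most 4.99 and called on no array. It was the only lysosomal gene called in replicate 4 alone, as were 7.19% of named genes. Replicate 1 alone called 2 lysosomal genes (2.98% of named genes), and replicates 2 and 3 alone called 0 (0.396% and 0.268%). Atp6v1h, a regulator of pump assembly, had 24.2, 3.46, 19.3 and 3.96 and was called in replicates 1 and 3, while its other probe was at most 5.12 and called on no array. Atp6v1d and Atp6v1e1, of the central and peripheral stalks, were called on no array, with signals of at most 7.87 and 11.2. Of the accessory subunits, Atp6ap1 had signals of 171, 79.0, 44.9 and 50.2, with levels of -1.16, -1.83, -2.39 and -2.15. Replicate 1 was highest, by up to 2.34-fold. Atp6ap2, the prorenin receptor, was called in replicate 1 alone and by the dimmer of its 2 probes, which read 17.5, 4.38, 5.78 and 5.56.

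The cultures differed little in most detected lysosomal genes. The SD over the 4 cultures had a median of 0.17 on the log2 scale over the 25 genes, with 0.07 for Cd63 as the lowest and 0.66 for Atp6v0d1 as the highest, against a median of 0.24 over all 1946 detected named genes. Ctsc, Ppt1, Atp6v0d1 and Atp6ap1 ranged over more than 2-fold between the highest and lowest culture, which is 4 of 25 (16.0%), against 15.3% of detected named genes, a share near the background. Without replicate 4, Atp6ap1 alone of the 28 genes then detected exceeded 2-fold, against 3.66% of the named genes then detected. Among the same 25 genes it was 1, against 2.72% of the same 1946. Without replicate 1, Ctsc and Atp6v0d1 exceeded it (12.5% of the named genes then detected). The share near the background held for these values and not for every scaling: after quantile normalization 6 of the 25 exceeded 2-fold, against 39.9% of detected named genes.

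Dim genes had a larger SD in general, so the genes were also set beside detected genes of the same range. Of the 25, 14 had a mean level at or above the median of detected named genes, which was -1.59. Their SD had a median of 0.14, against 0.19 for all 973 such genes. None of the 14 ranged over more than 2-fold (7.09% of those genes did). The 11 dimmer lysosomal genes had a median SD of 0.30, as had the dimmer genes in general, and included all 4 with a range over 2-fold (23.4% of the dimmer genes had one). Over replicates 1 to 3 alone, the median SD of the same 14 genes was 0.11, against 0.14 for detected genes of that range, and that of the 11 dimmer genes was 0.29, against 0.21. No test was made of these differences.

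**Figure D2:**
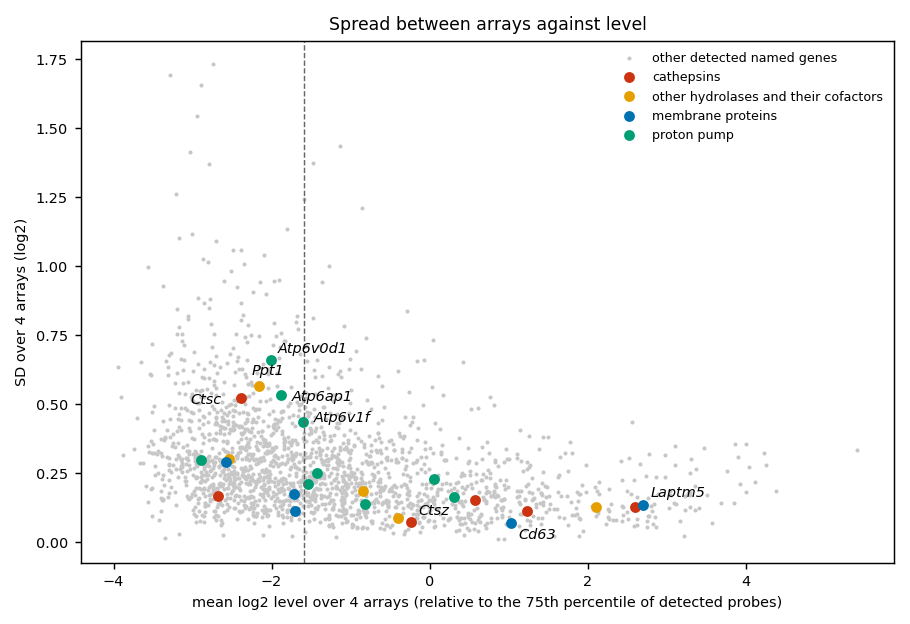
SD over the 4 arrays (log2) against mean log2 level relative to the 75th percentile of detected probes, for the 25 detected lysosomal genes by role and for the other detected named genes in grey. The dashed line is the median level, -1.59. The lysosomal genes right of it have a median SD of 0.14, and the 4 that ranged over 2-fold all lie left of it.

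Replicate 4 was the highest culture for 13 of the 25 genes (52.0%) and the lowest for 6 (24.0%). Among all detected named genes it was the highest for 30.1% and the lowest for 39.6%. Replicate 1 was highest for 5 of the lysosomal genes (27.8% of named genes), replicate 2 for 2 (19% of them) and replicate 3 for 5 (23.2%). Replicate 1 was lowest for 4 (19.9%), replicate 2 for 7 (18.3%) and replicate 3 for 8 (22.2%). The median difference of replicate 4 from the mean of the other 3 was 0.11 on the log2 scale over the lysosomal genes and -0.07 over all detected named genes, a gap of 0.18, which was 0.33 after quantile normalization and 0.04 with the normexp background correction. With dim probes kept, over all 43 genes, the gap was -0.86. There the lysosomal median was -0.06, while that of all named genes was 0.81. Of named genes 70.9% were well above background on no array, so that value is mostly one of background signal. The sign of the lysosomal median itself changed with the scaling, to -0.12 after quantile normalization. In 20 of the 25 genes the difference was smaller than 0.5, against 69.5% of detected named genes.

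The roles were not alike on that array. Replicate 4 was the highest for 5 of 6 cathepsins (all except Ctss), 3 of 5 other hydrolases and cofactors, and 5 of 9 proton pump genes, but for 0 of 5 membrane proteins. Its median difference from the other cultures was 0.17 for cathepsins, 0.14 for other hydrolases and cofactors and 0.24 for the pump. For membrane proteins it was -0.08, near the -0.07 of all detected named genes. On replicate 3 the median difference was -0.14 for cathepsins, -0.24 for other hydrolases and cofactors, 0.11 for membrane proteins and 0.06 for the pump. The roles also differed on the other arrays. On replicate 2 it was -0.12 for cathepsins, 0.005 for other hydrolases and cofactors, -0.08 for membrane proteins and -0.23 for the pump. On replicate 1 the values in that order were 0.07, 0.08, 0.04 and -0.10. These differences were not tested. Replicate 4 also had 656 non-uniform gene spots, against 17, 9 and 34 on replicates 1 to 3, and a higher signal of negative control spots. Some marker genes were called in replicate 4 alone, as were 7.19% of named genes in general. They were Krt8 and Sftpb (2 of 10 for lung epithelium), Cdh5 (1 of 5 for endothelium) and Marco (1 of 14 for macrophages). Their signals were 137, 45.0, 62.8 and 68.8 there and at most 4.07 on the other arrays. The part of any of this in the values above was not tested.

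**Figure D3:**
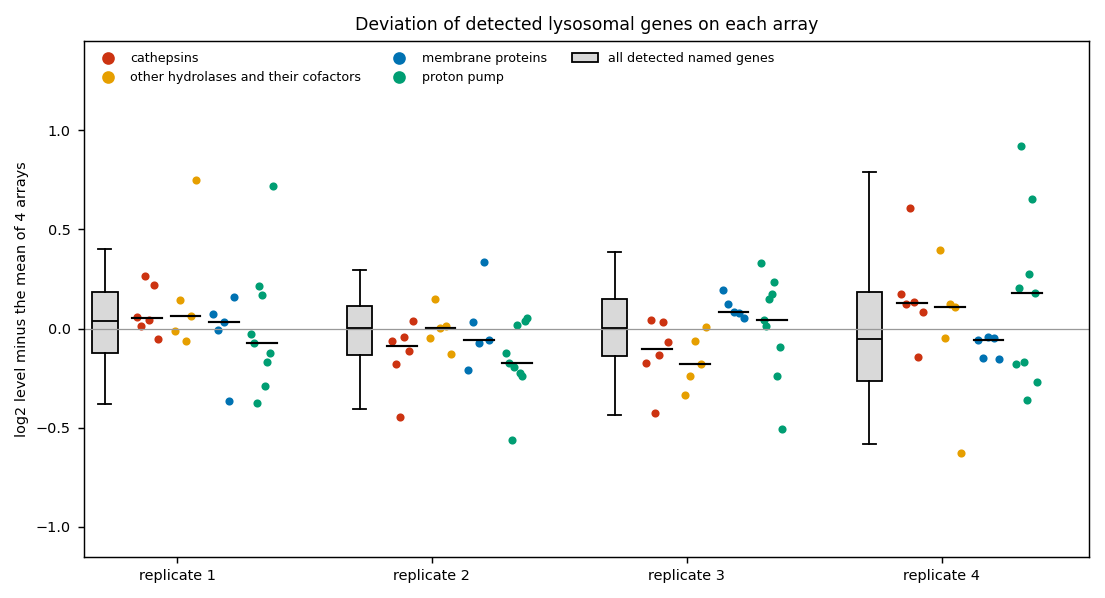
Log2 level of each array minus the mean of the gene over 4 arrays, for the 25 detected lysosomal genes by role (points, with the median as a bar) and for all 1946 detected named genes (grey boxes from the lower to the upper quartile, whiskers from the 5th to the 95th percentile). In replicate 4 the 5 membrane protein genes lie below 0, while 5 of 6 cathepsins lie above it.

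Probes of 7 lysosomal genes were printed 10 times per array, which allowed the difference between arrays to be set against the noise between spots. Over the 1350 probes of this kind, 1093 differed between arrays by the moderated F test of limma at a Benjamini-Hochberg adjusted p below 0.05 (81%), and of the 709 detected ones 529 did (74.6%). Of the lysosomal probes 5 of 7 did, which is near that background: Ctsa (adjusted p = 4.8e-06), Man2b1 (adjusted p = 0.000997), Laptm5 (adjusted p = 0.0017), Grn (adjusted p = 0.0060) and Ctsd (adjusted p = 0.0091). Cd63 (adjusted p = 0.17) and Ctsl (adjusted p = 0.13), which was not above background, did not pass.

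The passing differences were small. Ctsa levels were 0.64, 0.52, 0.40 and 0.75 in replicates 1 to 4, with an SD between spots of an array of 0.12. Ctsd levels were 1.27, 1.18, 1.09 and 1.36, and those of Grn were 2.16, 2.11, 1.92 and 2.20. All 3 were lowest in replicate 3 and highest in replicate 4. Man2b1 levels were -0.70, -0.70, -1.09 and -0.90, lowest in replicate 3, and Laptm5 levels were 2.86, 2.64, 2.76 and 2.55, lowest in replicate 4. Without replicate 3, Ctsa and Laptm5 were the 2 of 7 that passed, against 75.6% of the 1350 probes. The residual of this test is the noise between spots, so it compares arrays and says nothing of how much cultures vary.

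**Figure D4:**
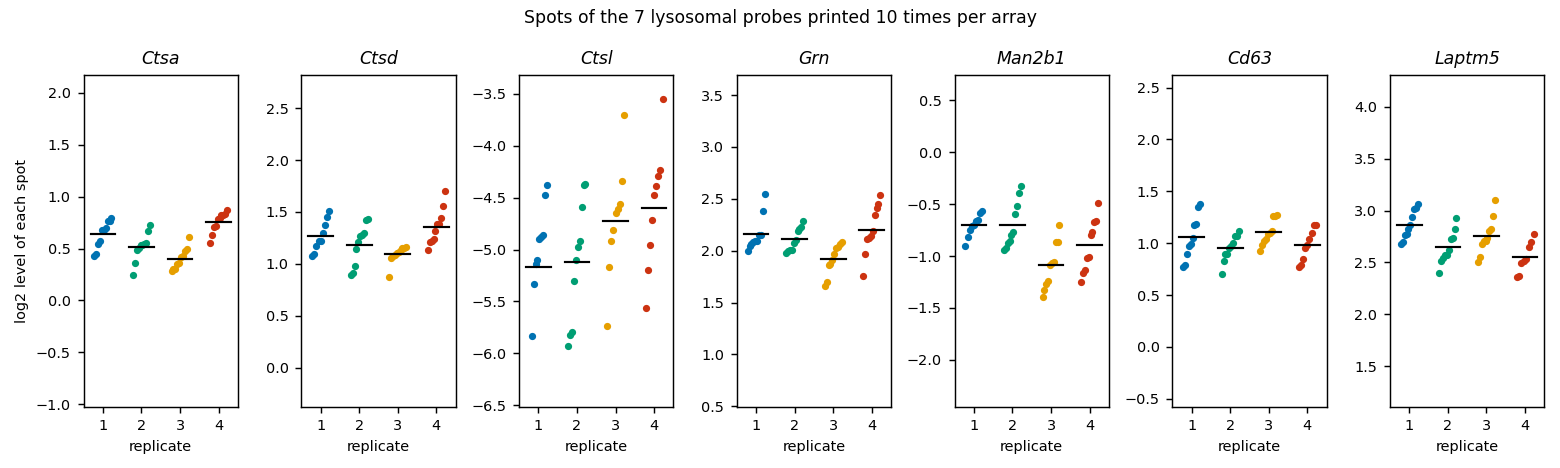
Log2 level of every kept spot of the 7 lysosomal probes printed 10 times, by replicate, with the array mean as a bar. Within an array the spots are sorted by value, and each axis spans the same 3.2 log2 units. The array means of Cd63 lie within 0.95 to 1.11, while the spots of Ctsl, which was not above background, scatter widely.

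Further genes of the lysosome were counted from lists of related pathways, beside the 11.9% of all named genes that were detected. Of 25 further hydrolases measured, 7 were well above background on all arrays, among them Smpd1, the acid sphingomyelinase (level -1.11 ± 0.11, SD, n = 4), and Lipa, the acid lipase (-1.64 ± 0.68). Of 17 further membrane proteins and transporters, 5 were, including the cholesterol carriers Npc1 (-2.79 ± 0.37) and Npc2 (-1.81 ± 0.15) and Cd68, a glycoprotein of phagocyte lysosomes (-3.53 ± 0.61), while Lamp3 was called on none. Of 9 other isoforms of pump subunits, Tcirg1 alone was, which encodes the a3 subunit known from osteoclasts and macrophages. Its signals were 475, 414, 286 and 557, highest in replicate 4, with a level of 0.62 ± 0.49, whereas the a1 gene Atp6v0a1 was called in replicate 1 alone and the a2 gene Atp6v0a2 on no array.

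Of 10 genes that sort hydrolases to the lysosome, 3 were detected, the mannose 6-phosphate receptor genes M6pr (-0.35 ± 0.33) and Igf2r (-1.44 ± 0.41) and Gnptg (-2.87 ± 0.18), a subunit of the enzyme that starts that sugar tag. Sort1, encoding sortilin, was called on none. Of 5 cathepsin inhibitor genes, the cystatin genes Cst3 (-0.01 ± 0.11) and Cstb (1.41 ± 0.18) were detected, and Cst6 was called on none. Of 13 genes of nutrient sensing at the lysosome, 6 were detected, among them Lamtor2 (0.03 ± 0.56) and Lamtor4 (-1.85 ± 0.73), subunits of the Ragulator complex, and the GTPase gene Rragc (0.24 ± 0.08), while Rraga was called on none. Lamtor4 levels were -2.18, -2.19, -2.26 and -0.75, with replicate 4 apart, as for Atp6v1f.

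The label of the cells was checked with marker genes. Of 14 macrophage markers, 7 were well above background on all arrays (Cd68, Lyz2, Spi1, Fcgr1a, Aif1, Tyrobp and Fcer1g), and Csf1r, Mrc1, Itgam, Cd14 and Adgre1 were called on no array. No marker of lung epithelium (10 measured), fibroblasts (6), lymphocytes (4) or granulocytes (4) was detected on all arrays, and of 5 endothelial markers Vwf was. In all, 3208 of 45598 probes (7.04%) were detected on every array, no gene spot was saturated, and with 4 arrays every SD is itself imprecise.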

How the data were processed

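The files hold 1 array per culture. Spot intensity was deposited on a linear scale. The processed signal is intensity less the background of its own array, as Feature Extraction (version 11.0.1.1 in the submitters' processing notes) wrote it, with flags per the file headers. No scaling between arrays is recorded in the labels. The normexp alternative used the deposited median signal and median background intensity in place of the mean signal that had been planned.

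Left out were 4259 control spots per array and the gene spots flagged as non-uniform or population outliers (596, 546, 560 and 1296 in replicates 1 to 4). The log2 signal was averaged over the spots of each probe, so signals of several spots are geometric means. A probe counted as detected when over 50% of its spots were well above background on every array. Since 7.04% of probes were detected, scaling used the 75th percentile of those alone, and the brightest detected probe gave the level of its gene.

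Unversioned accessions named 21109 of 45598 probes (46.3%) through RefSeq's GRCr8 gene table. The files name another build, so only RefSeq's promoter coordinates are printed.

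limma version 3.58.1 (R version 4.3.3) gave a moderated F test that compared arrays over spots for the 1350 probes printed 10 times, and was tested on simulated data. The rest used Python 3.11.15 with pandas 2.3.3, scipy 1.17.1, numpy 2.4.6 and matplotlib 3.10.9. With 1 group, no groups could be compared, and counts stand beside all named genes without a test. All 44 genes are named. Of each further list, the first 3 detected genes and the first 1 called on no array are named in written order, except some that are not reported here. Members, lists and the attention to replicate 4 were chosen with earlier results of these data known. The labels call the cultures biological replicates and say no more, so their spread may be partly technical.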

Additional observations from a re-analysis of the deposited data

Results flagged for a closer look

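In 3 of the 43 lysosomal genes, 1 array stood apart from the other 3 by Dixon's ratio of gap to range for 4 samples. Chance flags about 1 in 20 such groups, and among detected genes it was 1 of 25 lysosomal genes (Atp6v1f), against 7.66% of named genes. Atp6v1f had a level of -0.95 in replicate 4, above -1.77, -1.84 and -1.85 in replicates 1 to 3. Ctsh had -3.02 in replicate 2, above -3.54, -3.47 and -3.55 in replicates 1, 3 and 4, and was not well above background in replicate 4. Atp6v0a1 had -4.72 in replicate 2, below -4.11, -4.15 and -4.10 in the others, but was above background in replicate 1 alone, so its other values, replicate 2 included, have no reliable order. Each of these probes was printed once per array.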

How the results depend on the processing

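The count of detected genes stayed within 24 to 35 under every alternative tried, and within 25 to 28 when 1 array was left out. Looser rules raised the share of all named genes too, from 11.9% to 21.5% with negative control spots (33 lysosomal genes). With the software's flag for positive and significant signal it was 23.4% (34). The 35 were called on at least 1 array, and 70.9% of named genes were called on none. Levels of the 25 genes moved by less than their SD after quantile normalization. With normexp 16 moved by more (Ctss at -1.69 and Atp6v1c1 at -1.79). Without replicate 4, 20 did, and all 25 were higher, by 0.09 to 0.61 (Ppt1 at -1.55). There the scaling percentile was taken anew over the probes detected on the arrays left. Ctsa was thus at 0.92, above its levels of 0.64, 0.52 and 0.40 in replicates 1 to 3. This rise therefore reflects the scaling and does not show that replicate 4 lay low. The number of genes over 2-fold, 4 as reported, was 10 if arrays were left unscaled (52.8% of all genes), 23 if the percentile was taken over all gene probes (92.8%), 0 with normexp, whose offset of 50 shrinks differences (2%), and 13 of 43 when dim probes were kept (72.5%). It was 1 to 4 with 1 array left out, lowest without replicate 4 (1 of 28), against 3.66% to 13.8% of all genes detected on the arrays left. The median SD was 0.40 unscaled and 0.75 with the percentile over all gene probes. The median difference of replicate 4 from the others was -0.12 after quantile normalization, -0.29 unscaled and -1.45 with the percentile over all gene probes. These last 2 settings move every gene of an array alike, so the gap to all genes stayed at 0.18 under both. Of the 7 probes printed 10 times, 5 to 7 passed under other scalings, corrections and tests, against 59.3% to 96.4% of the 1350 probes. It was 6 after quantile normalization (59.3%), 6 unscaled (96.4%) and 7 with the percentile over all gene probes (94.5%). With 1 array left out 2 to 5 passed, fewest without replicate 3, against 67.5% to 77.6% of the 1350 probes. Ctsl, not above background, passed with the percentile over all gene probes, quantile normalization and normexp, and Ctsd did not pass with normexp (adjusted p = 0.058). No paired analysis was possible because there is only 1 group of samples. Signals near background limit 18 of the 43 genes.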
